A study of Mus musculus with 5 samples.

Results

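Organic anion and drug transporters move bile acids, bilirubin, hormone conjugates and medicines through the hepatocyte. Uptake carriers of the Slco and Slc22 families, which sit mostly in the membrane facing the sinusoidal blood, bring their substrates in, and ATP-driven pumps of the Abcc and Abcb families send substrates or their conjugates out, either across the canalicular membrane into bile or back into blood. In rodent liver the nuclear receptors CAR, PXR and FXR, the antioxidant factor NRF2 and the sex-dependent pattern of growth hormone secretion are known regulators of these genes. The 9 transporters described here were taken by gene symbol from the 32285 genes of the data. They are the uptake carriers *Slco1a1*, *Slco1a4*, *Slco1b2*, *Slco2b1* and *Slc22a7* (5 genes) and the efflux pumps *Abcc2*, *Abcc3*, *Abcc4* and *Abcb1a* (4 genes).

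RNA was counted by snRNA-seq in livers of wild-type C57BL6/J male mice. Both diets began at an age of 10 to 12 weeks and lasted 5 months. Chow libraries (n = 3) came from mice on regular chow, and MASH libraries (n = 2) from mice on a diet with 2% cholesterol that drew 40 kcal% from fat and 20 kcal% from fructose. The latter diet is a model of metabolic dysfunction–associated steatohepatitis. Nuclei of snap-frozen tissue were sorted by FACS, with a gate that is not described here, and whether 1 library holds 1 mouse or several is not stated, so p-values measure the spread between libraries. Hepatocyte nuclei were defined as nuclei with at least 2000 UMIs (counted RNA molecules) and at least 1 UMI of *Hnf4a*, a hepatocyte transcription factor. This left 23267 of 57080 barcodes (15125194 to 39316007 UMIs per library), namely 4222, 6744 and 7006 nuclei of the chow libraries (replicates 1 to 3, the order used throughout) and 2684 and 2611 of the MASH libraries (replicates 1 and 2). Barcodes found in more than 1 library numbered 55 among them. The median depth was 3871.5 to 5475 UMIs per nucleus. Levels are UMIs of a gene per 1000000 UMIs (CPM), and a nuclear level is not a protein or a transport rate. Without the *Hnf4a* requirement, 6533, 9372 and 8904 nuclei of the chow libraries and 6191 and 5733 of the MASH libraries reached 2000 UMIs. The gate thus kept a smaller part in MASH. *Hnf4a* itself stood at 374, 501 and 466 CPM (unscaled) in hepatocyte nuclei of chow and at 284 and 255 CPM in those of MASH.

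Several properties of the libraries touch the results below. Chow replicate 3 stood apart from the other chow libraries, with 23698 CPM of 10 acute-phase genes against 3434 and 5629 CPM, and values without it are given where they differ. Markers of stellate cells (61.4 to 100 CPM in chow and 233 to 282 CPM in MASH), macrophages (47.5 to 67.6 and 121 to 241 CPM), cholangiocytes (26.8 to 67.4 and 85.5 to 128 CPM), T and NK cells (1.34 to 4.78 and 11.3 to 11.5 CPM) and dendritic cells (1.89 to 7.96 and 17.3 to 22.3 CPM) were higher in hepatocyte nuclei of both MASH libraries than of every chow library. Those of endothelial cells, B cells, neutrophils and erythroid cells overlapped between the diets, and no marker of these lists was at 0 in all hepatocyte nuclei. Their part in the results was not tested. RNA of a hepatocyte gene was also counted in other nuclei. *Alb*, which encodes albumin, stood at 4356 to 11825 CPM in endothelial-gated nuclei of chow, above its 2110 to 5203 CPM in hepatocyte nuclei of chow.

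Of the 9 genes, 3 uptake carriers lie in the Slco cluster of chromosome 6 (GRCm38, GENCODE M21). *Slco1b2* (ENSMUSG00000030236) spans chr6:141629518-141686646 on the plus strand, *Slco1a4* (ENSMUSG00000030237) chr6:141805440-141856199 on the minus strand and *Slco1a1* (ENSMUSG00000041698) chr6:141907282-141946962 on the minus strand. The 250 bases before their RefSeq start sites (GRCm38.p6) are shown because these genes of 1 cluster had diet log2 fold changes of different sign, given below. Capitals mark matches on either strand to 3 motifs that were searched, the nuclear receptor half-site AGGTCA, the HNF1 half-site GTTAAT and the STAT element TTCNNNGAA, to which STAT5 downstream of the growth hormone receptor can bind.
Slco1a1, chr6:141946963-141947212, minus strand: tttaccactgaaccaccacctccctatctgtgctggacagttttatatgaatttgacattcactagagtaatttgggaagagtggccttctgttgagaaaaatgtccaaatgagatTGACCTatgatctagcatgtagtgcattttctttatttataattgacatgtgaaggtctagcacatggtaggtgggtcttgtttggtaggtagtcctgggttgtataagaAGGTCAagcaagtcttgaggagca
Slco1a4, chr6:141856221-141856470, minus strand: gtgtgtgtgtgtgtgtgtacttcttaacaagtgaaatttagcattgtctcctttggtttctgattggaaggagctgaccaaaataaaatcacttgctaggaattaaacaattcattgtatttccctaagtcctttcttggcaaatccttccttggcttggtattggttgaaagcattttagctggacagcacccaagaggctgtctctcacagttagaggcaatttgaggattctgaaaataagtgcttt
Slco1b2, chr6:141629268-141629517, plus strand: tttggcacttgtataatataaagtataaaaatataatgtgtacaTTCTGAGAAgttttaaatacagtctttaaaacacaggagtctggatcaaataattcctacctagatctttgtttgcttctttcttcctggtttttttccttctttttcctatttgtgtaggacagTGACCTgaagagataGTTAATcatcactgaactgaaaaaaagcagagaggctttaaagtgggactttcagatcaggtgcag

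The *Slco1a1* window held 2 nuclear receptor half-sites, at -134 to -129 and -24 to -19 from the start site, and neither of the other motifs. The *Slco1b2* window held 1 match to each of the 3 motifs, and the *Slco1a4* window held none. Among 32817 promoters of the same length, 14.0% held the nuclear receptor half-site, 6.44% the HNF1 half-site and 7.01% the STAT element, and each match is given as a description of the letters only. The STAT element also occurred once before RefSeq start 3 of *Slco2b1*, at -133 to -125. Another motif, the NRF2-type antioxidant response element core TGACNNNGC (10.2% of promoters), occurred once before each of 2 RefSeq starts of *Abcc4*. RefSeq promoters were found for 7 of the 9 genes, all but *Slc22a7* and *Abcc3*, and those of *Abcc2* and *Abcb1a* are not described because the first window reached into the GENCODE gene and the second lay far upstream of it.

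The first comparison asked how the transporters differed between the diets in hepatocyte nuclei. *Slco1a1* fell by 3.65 on the log2 scale and *Abcb1a* rose by 2.85, and these 2 of 9 transporters passed the threshold of an adjusted p under 0.05. Over all 15414 genes tested 13.7% were called, 9.26% higher and 4.48% lower in MASH, against which the 2 of 9 are to be read. Uptake carriers had 1 call, lower, with a median log2 fold change of -0.26, and efflux pumps had 1 call, higher, with a median of 0.98, beside a median of 0.00101 over all genes. Scaled by library totals alone the median of all genes was 0.33, 83.6% of called genes were higher against 67.4% with TMM scaling, and *Slco1a1* and *Abcb1a* stood at -3.39 and 3.21. The number of called genes, 2117, was 280 without MASH replicate 1, 216 without MASH replicate 2, 859 without chow replicate 2 and 3298 without chow replicate 1. For 4 members (*Slco1a4*, *Abcc2*, *Abcc4* and *Abcb1a*) the lower MASH value exceeded the highest chow value, and for 2 (*Slco1a1* and *Slc22a7*) the higher MASH value was under the lowest chow value. Such separation held for 54.3% of all genes, 30.1% in the higher and 24.2% in the lower direction.

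**Figure D1:**
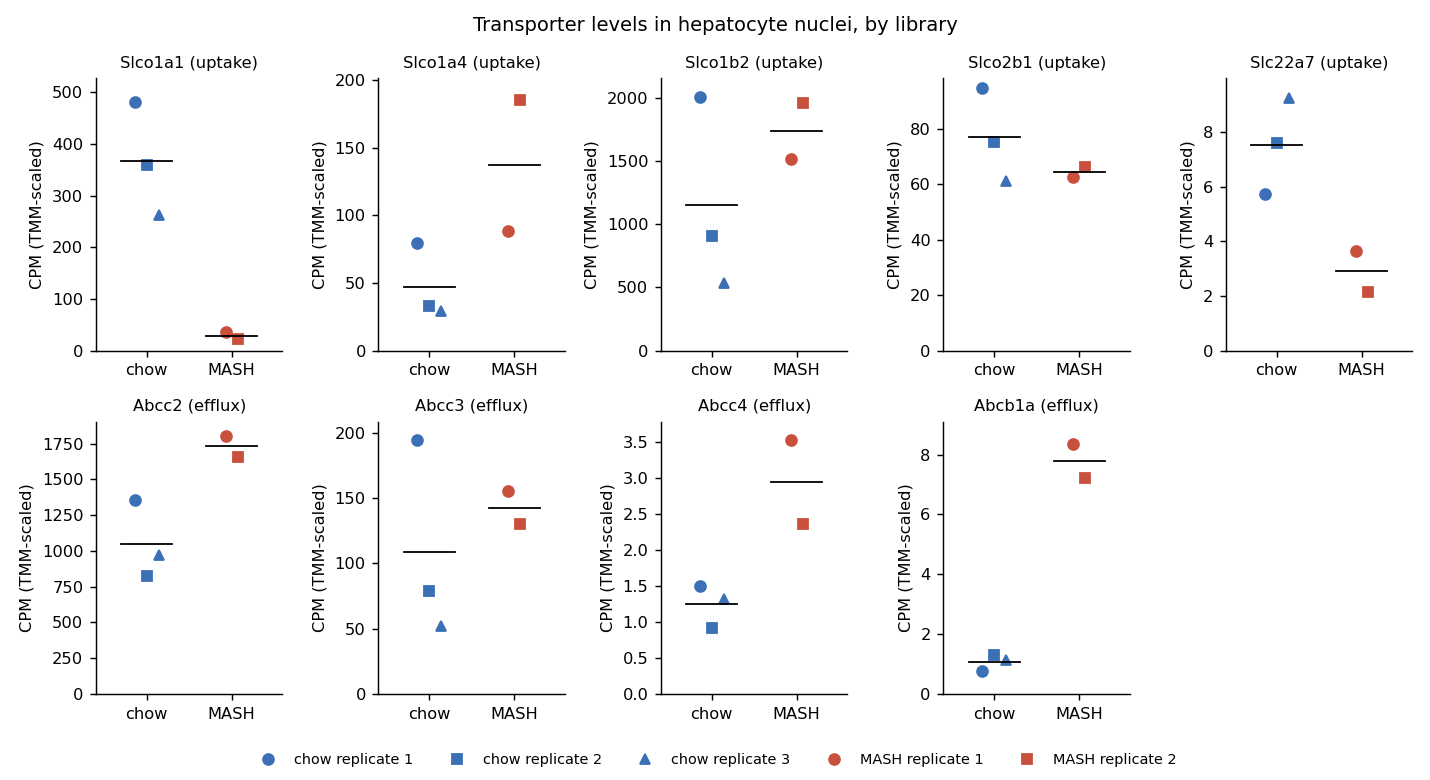
TMM-scaled CPM (y axis, linear from 0, a scale of its own in each panel) of the 9 transporters in hepatocyte nuclei of each library (points) by diet (x axis), with horizontal lines at the mean of each diet. For *Slco1a1* the MASH libraries sit at 35.4 and 23.1 CPM below all chow libraries, and for *Abcb1a* at 8.35 and 7.21 CPM above them.

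*Slco1a1* encodes an uptake carrier of bile acids, steroid conjugates and other organic anions that is expressed more in male than in female mouse liver. Its level was 481, 359 and 263 CPM in chow against 35.4 and 23.1 CPM in MASH. Every chow library was above both MASH libraries, with no overlap. The level was 12.6-fold lower in MASH (log2 fold change -3.65, SE 0.41, edgeR adjusted p 0.00413). The call held in all 19 alternative analyses of hepatocyte nuclei, and the smallest change was -3.37, in nuclei with few UMIs of other cell types. *Slco1a1* was also lower in MASH in nuclei gated as other cell types, where it stood at 118 to 258 CPM in endothelial, stellate cell and macrophage nuclei of chow and at 1.98 to 19.8 CPM in those of MASH. Hepatocyte nuclei held 1.37 to 2.81 times the level of other gated nuclei pooled, in 5 of 5 libraries. *Slco1a1* overlaps *Gm22036* on the same strand.

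The share of hepatocyte nuclei with a *Slco1a1* UMI, at 2000 UMIs per nucleus, was 60.8%, 43.6% and 28.2% in chow against 7.23% and 4.83% in MASH (unthinned 51.2% to 86.4% and 12.4% to 14.8%). The diets did not overlap. The exact two-sided permutation p was 0.2, 1 of 9 such tests, and 0.1 is the smallest p that 3 against 2 libraries allow. As background, 11.9% to 27.8% of endothelial, stellate cell and macrophage nuclei in chow and 0.318% to 2.34% in MASH carried a *Slco1a1* UMI, at median depths of 940 to 1389 UMIs. The share in hepatocyte nuclei, at a greater depth, was above that background in every library. In chow replicate 3 it was close to the 23.8% of macrophage nuclei, with 199 against 186 CPM (unscaled). An excess at equal depth was not tested.

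*Slco1a4*, of the same cluster as *Slco1a1*, encodes a carrier of cardiac glycosides and organic anions. Its level was 79.9, 32.7 and 29.6 CPM in chow and 88.6 and 186 CPM in MASH. The lowest MASH library was just above the highest chow library. The log2 fold change was 1.53 (SE 0.49, adjusted p 0.0746) and did not pass. It passed without chow replicate 1, at 2.14 (adjusted p 0.0215), with DESeq2 (0.0268), with Storey's q-values (0.0313) and without a filter on low counts (0.0115). Without MASH replicate 2 the change was 0.91 (adjusted p 0.461), and without chow replicate 2 it was 1.27 (adjusted p 0.200). Between *Slco1a4* and *Slco1a1*, 1 of 3426 sequences of 50 bases near the 3' ends of the *Slco1a4* transcripts was shared.

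*Slco1b2* encodes the main hepatocyte carrier of bilirubin and statins. Its level was 2004, 906 and 533 CPM in chow and 1511 and 1955 CPM in MASH. Chow replicate 1 was above both MASH libraries, and the diets overlapped. The log2 fold change was 0.59 (SE 0.56, adjusted p 0.489). It was 1.27 without chow replicate 1 (adjusted p 0.0738), 0.39 without chow replicate 2 and 0.19 without chow replicate 3. *Slco2b1* (ENSMUSG00000030737, chr7:99657804-99711340, minus strand), a carrier of steroid sulfates, stood at 94.8, 75.2 and 61.3 CPM in chow and at 62.5 and 66.0 CPM in MASH. The diets overlapped here too. The difference on the log2 scale was -0.26 (SE 0.26, adjusted p 0.512), and the sign turned to 0.03 under scaling by library totals alone. *Slco2b1* overlaps *Gm15635* and *Gm34280* on the other strand.

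*Slc22a7* (ENSMUSG00000067144, chr17:46432183-46438457, minus strand) encodes an organic anion carrier of the basolateral membrane. It was sparse, with 149, 216 and 275 UMIs in the chow libraries and 61 and 45 UMIs in the MASH libraries. These gave 5.72, 7.59 and 9.25 CPM in chow and 3.64 and 2.16 CPM in MASH, with no overlap. The log2 fold change of -1.38 (SE 0.41, adjusted p 0.0599) did not pass. It passed with DESeq2 (adjusted p 0.00724), with Storey's q-values (0.0251), without a filter on low counts (0.029), in nuclei with few UMIs of other cell types (0.0484) and without chow replicate 1 (0.0405).

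Among the efflux pumps, *Abcb1a* (ENSMUSG00000040584, chr5:8660077-8748575, plus strand) encodes a P-glycoprotein, which pumps hydrophobic drugs into bile. It was at 20, 37 and 34 UMIs in the chow libraries and 140 and 150 UMIs in the MASH libraries. Its level was 0.767, 1.30 and 1.14 CPM in chow and 8.35 and 7.21 CPM in MASH. Both MASH libraries were above every chow library. *Abcb1a* was 7.22-fold higher in MASH (log2 fold change 2.85, SE 0.39, edgeR adjusted p 0.00729). The call was lost without MASH replicate 1 (2.74, adjusted p 0.0739) and without MASH replicate 2 (2.96, adjusted p 0.0602), where a single MASH library is assumed to vary like the others. At its low level *Abcb1a* was not tested under a minimum of 10 CPM in 2 libraries.

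The share of hepatocyte nuclei with an *Abcb1a* UMI, at 2000 UMIs per nucleus, was 0.189%, 0.267% and 0.157% in chow against 1.64% and 1.99% in MASH (exact two-sided permutation p 0.1, unthinned 0.471% to 0.534% and 4.81% to 5.32%). Stellate cell nuclei carried it in 0.224%, 0% and 0% of nuclei in chow (0 of 147 and 0 of 299 nuclei allow up to 2.04% and 1.003%, by 3 counts and for counting error only) and 0.580% to 0.793% in MASH, at median depths of 1004 to 1389 UMIs, and endothelial nuclei in 0.797%, 0% (0 of 208, which allows up to 1.44%) and 0.639% in chow and 0.779% and 0.768% in MASH. In chow replicates 1 and 3 the share in hepatocyte nuclei was below that in endothelial nuclei, so no expression is read from it. Macrophage nuclei carried *Abcb1a* in 0% of nuclei in chow (0 of 75, 54 and 122, which allow up to 4%, 5.56% and 2.46%). In MASH they carried it in 0.598% and 1.27% of nuclei, at median depths of 1361 and 1317.5 UMIs. The MASH share in hepatocyte nuclei, at a greater depth, was above the MASH values of all these types. Macrophage nuclei of MASH held 3.45 and 7.92 CPM against 9.26 and 8.63 CPM in hepatocyte nuclei (unscaled), and equal depth was not tested. The level was highest in cholangiocyte-gated nuclei of MASH, at 24.4 and 37.5 CPM from 2 and 17 UMIs, and cholangiocyte markers were higher in MASH hepatocyte nuclei as given above. In hepatocyte nuclei with at most 1 UMI of other cell types' markers the *Abcb1a* log2 fold change was 3.41. This gate kept 1014 and 861 nuclei of the MASH libraries, and the part of other cell types' RNA in the rise was not tested. Within the last 1000 bases of its transcripts, 12.2% of 50-base sequences were shared with the paralog *Abcb1b*, which stood at 1.61, 8.47 and 7.74 CPM in chow and 2.80 and 1.63 CPM in MASH (log2 fold change -1.43, adjusted p 0.198). *Abcb1b* is named for this sharing and not by the rule. *Abcb1a* also overlaps *Gm42684* on the same strand and *Gm42686* on the other.

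*Abcc2* (ENSMUSG00000025194, chr19:43782192-43840740, plus strand) encodes the canalicular pump for conjugated bilirubin and glutathione conjugates. Its level was 1354, 822 and 971 CPM in chow and 1805 and 1658 CPM in MASH. The diets did not overlap, but the log2 fold change of 0.72 (SE 0.37, adjusted p 0.210) did not pass in hepatocyte nuclei under any alternative analysis. *Abcc3* (ENSMUSG00000020865, chr11:94343295-94392997, minus strand), a pump of glucuronides into blood, stood at 194, 79.0 and 52.2 CPM in chow and 155 and 130 CPM in MASH. The diets overlapped (log2 fold change 0.39, SE 0.51, adjusted p 0.619), and chow replicates 1 and 3 decided the value. It was 1.12 without chow replicate 1 (adjusted p 0.0410) and -0.0032 without chow replicate 3 (adjusted p 0.997).

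*Abcc4* (ENSMUSG00000032849, chr14:118482692-118706219, minus strand), a basolateral pump that exports bile acids together with glutathione, was sparse, with 26 to 39 UMIs per chow library and 59 and 49 UMIs in MASH. Chow libraries held 0.914 to 1.496 CPM and MASH libraries 3.52 and 2.36 CPM in MASH. The diets did not overlap, but the log2 fold change of 1.24 (SE 0.45, adjusted p 0.102) did not pass. It passed in nuclei with few UMIs of other cell types (2.00, adjusted p 0.0434), without the *Hnf4a* requirement (1.42, adjusted p 0.0485) and with Storey's q-values (0.0426). *Abcc4* overlaps *Mir6391* on the same strand and *Gm23302* and *Gm49033* on the other. Its CPM was higher outside hepatocytes. Endothelial-gated nuclei held 31.2, 15.3 and 29.8 CPM in chow and 23.9 and 21.9 CPM in MASH, and the level in hepatocyte nuclei was 0.0519 to 0.315 of that in other nuclei pooled, below 1 in 5 of 5 libraries.

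*Slco2b1* was also found outside hepatocytes. Stellate cell nuclei of chow held 205, 137 and 195 CPM, against 104, 68.4 and 46.3 CPM in hepatocyte nuclei of the same libraries (unscaled). In MASH, stellate cell nuclei held 66.6 and 80.5 CPM and hepatocyte nuclei 69.4 and 79.1 CPM. The chow excess in stellate cell nuclei was thus not seen in MASH, which is a description of 5 libraries with no test. By contrast *Abcc2* (2.36 to 3.96 times), *Slco1a4* (1.45 to 3.30 times) and *Slco1b2* (1.11 to 2.66 times) were higher in hepatocyte nuclei than in the other nuclei pooled in 5 of 5 libraries. Nuclei were gated by markers and not by clusters, and the part of free RNA in these levels was not tested.

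**Figure D2:**
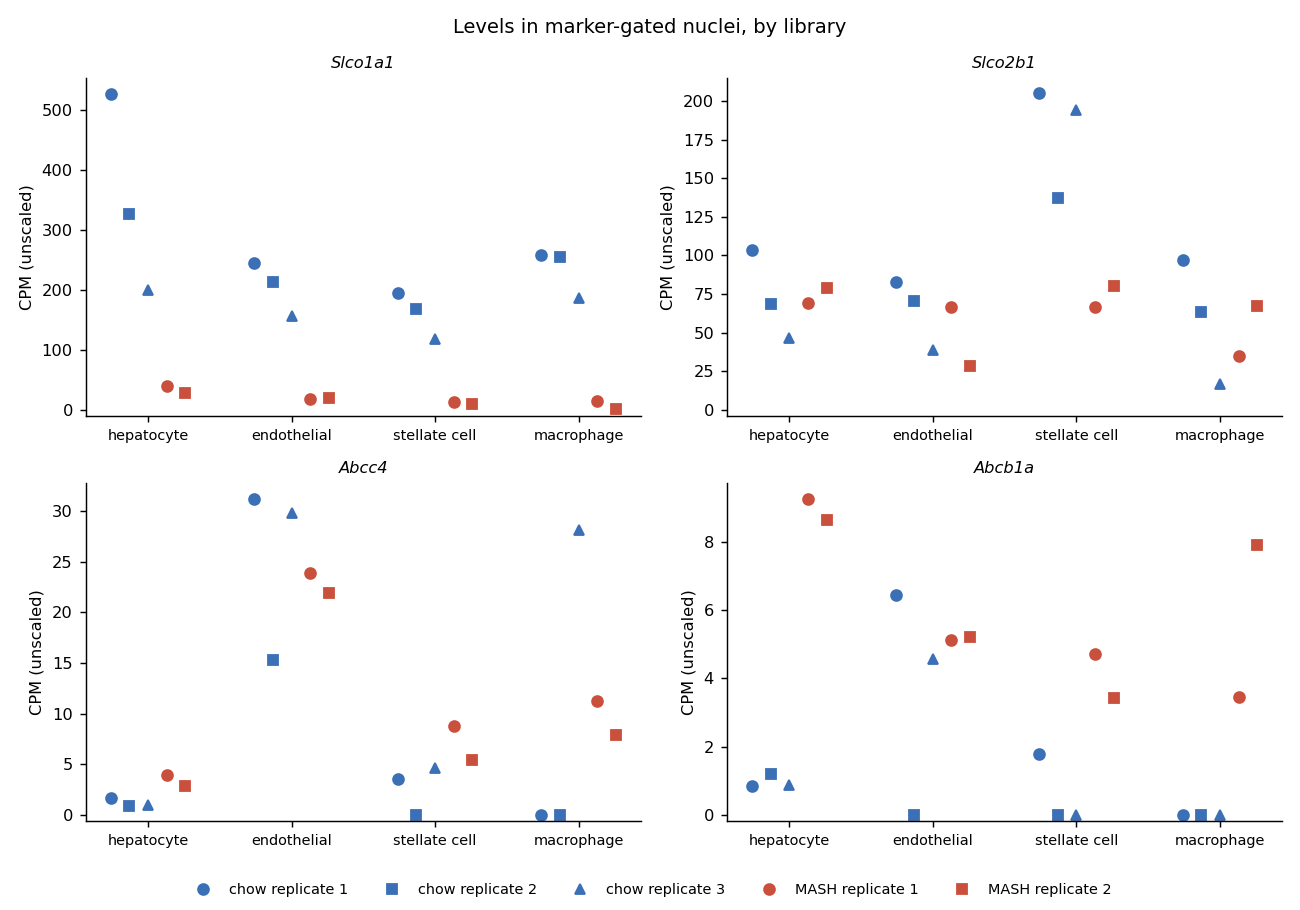
Unscaled CPM (y axis, linear, a scale of its own in each panel) of 4 transporters in hepatocyte, endothelial, stellate cell and macrophage nuclei (x axis), 1 point for each library. *Slco1a1* is lower in MASH in all 4 classes, *Slco2b1* of chow is highest in stellate cell nuclei (137 to 205 CPM), *Abcc4* is highest in endothelial nuclei (15.3 to 31.2 CPM) in all 5 libraries, and *Abcb1a* in hepatocyte nuclei is 9.26 and 8.63 CPM in MASH.

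The second comparison asked where in the lobule the differences lay. Hepatocytes near the portal vein (periportal) and near the central vein (pericentral) differ in metabolism and drug handling. The hepatocyte nuclei of each library were ranked by the level of pericentral minus periportal markers and split into 3 equal zones; no transporter was a marker. *Glul*, a pericentral marker, was at 214 to 301 CPM in the pericentral zones of chow and at 835 and 981 CPM in those of MASH. It was at 18.2 to 55.4 CPM in the periportal zones. The periportal markers in the periportal zones stood at 5134 to 6189 CPM in chow and at 3942 and 3563 CPM in MASH. The pericentral zone of chow replicate 3 held less of the pericentral markers (2494 CPM) than the other pericentral zones (3857 to 5684 CPM), and 14.7% to 17.6% of nuclei in a library lay within 0.1 SD of a cut point. With cut points common to all libraries, the periportal zone held 1864 to 2832 nuclei in chow and 753 and 462 in MASH. The pericentral zone then held 1464 to 1769 nuclei in chow and 1061 and 1218 in MASH. A zone is thus a rank within its library and need not be the same position in the lobule in both diets.

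Over both diets, with the library as a block, 6 of 9 transporters differed between the pericentral and the periportal zone, beside 19.9% of 14116 genes (10.5% higher and 9.44% lower in the pericentral zone). *Slco1b2* (log2 difference 1.49, SE 0.14, adjusted p 0.00016), *Abcc4* (1.51, SE 0.35, adjusted p 0.0148), *Slco1a1* (1.02, SE 0.26, adjusted p 0.0223), *Abcc3* (0.71, SE 0.17, adjusted p 0.0165) and *Abcc2* (0.57, SE 0.12, adjusted p 0.00812) were higher in the pericentral zone. *Slc22a7* was higher in the periportal zone (-1.49, SE 0.24, adjusted p 0.00264). *Slco1a4* (0.35, adjusted p 0.0899), *Slco2b1* (0.03, adjusted p 0.830) and *Abcb1a* (-0.15, adjusted p 0.669) did not pass. The call of *Slco1a1* was lost without MASH replicate 2 (0.92, adjusted p 0.0560) or chow replicate 3 (0.98, adjusted p 0.0769), that of *Abcc3* without chow replicate 1 (0.54, adjusted p 0.0537) or 3 (0.56, adjusted p 0.0530), and that of *Abcc4* without MASH replicate 1 (1.34, adjusted p 0.0630). Without chow replicate 1 *Slco1a4* passed (0.49, adjusted p 0.0158), and 1847 genes were called against 2816 with all libraries.

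*Slco1b2* showed the slope in every library: its pericentral level was 3.35, 2.34 and 4.38 times the periportal level in chow and 2.45 and 2.01 times in MASH. The same ratio for *Slc22a7* was 0.1403, 0.362 and 0.551 in chow against 0.429 and 0.349 in MASH. Thus an uptake carrier at each end of the lobule kept its side in 5 of 5 libraries. Within chow alone (19.6% of 12792 genes called, 10.6% higher and 9% lower) *Slco1b2* (1.69), *Abcc3* (1.01), *Abcc2* (0.78) and *Slco1a1* (0.59) were called higher in the pericentral zone, *Slc22a7* (-1.505) was called lower, and *Abcb1a* had too few UMIs to be tested.

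**Figure D3:**
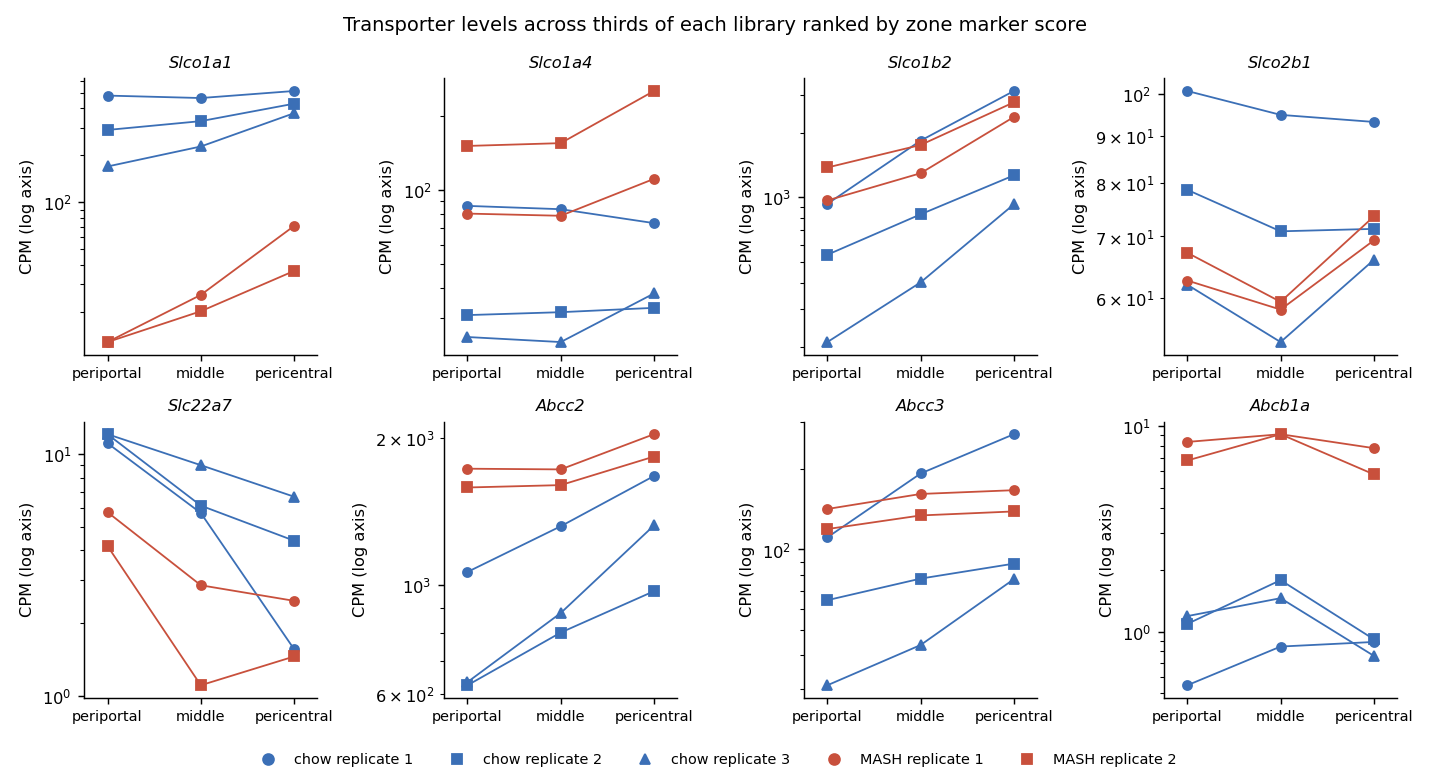
TMM-scaled CPM (y axis, log scale, a range of its own in each panel) of 8 transporters in the periportal, middle and pericentral zone (x axis) of each library (lines). *Slco1a1* runs from 12.8 CPM in both periportal MASH zones to 70.6 and 36.4 CPM in the pericentral ones, *Slco1b2* climbs towards the pericentral end in every library, and *Slc22a7* is highest in the periportal zone of every library.

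Between the diets, *Slco1a1* was lower in MASH in all zones. Its periportal level was 482, 290 and 170 CPM in chow and 12.8 and 12.8 CPM in MASH, its middle level 465, 331 and 228 CPM in chow and 25.6 and 20.1 CPM in MASH, and its pericentral level 515, 428 and 372 CPM in chow and 70.6 and 36.4 CPM in MASH. No zone overlapped between the diets. The log2 fold change was -4.62 (SE 0.52, adjusted p 0.00518) in the periportal zone, -3.90 (SE 0.42, adjusted p 0.00406) in the middle zone and -3.02 (SE 0.39, adjusted p 0.00830) in the pericentral zone. Of all genes 13.6% were called in the periportal zone (8.96% higher and 4.61% lower), 9.27% in the middle zone (6.26% and 3.01%) and 9.85% in the pericentral zone (6.53% and 3.33%), or 1815, 1281 and 1329 genes. These counts were 33 to 62, 73 to 86 and 30 to 72 with either MASH library left out, 843, 394 and 557 without chow replicate 2, and 2797, 2662 and 2206 without chow replicate 1. With 1 MASH library left out none of these calls held (adjusted p 0.0524 to 0.105), with log2 fold changes from -4.63 to -2.61. The periportal MASH level of 12.8 CPM was within the 1.98 to 19.8 CPM (unscaled) of other cell types of MASH, and the 170 CPM of chow replicate 3 within the 118 to 258 CPM of those of chow. The part of free RNA in these levels was not tested.

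The difference between the diets was itself different between the end zones, as ranked within each library, for *Slco1a1*. The zone by diet interaction was 1.43 (SE 0.32, edgeR adjusted p 0.0446), the only call among the 9 transporters, beside 2.34% of all genes (1.22% higher and 1.13% lower). The pericentral level was 1.07, 1.47 and 2.19 times the periportal level in chow and 5.52 and 2.85 times in MASH, with no overlap. The call was lost with cut points common to all libraries (1.37, adjusted p 0.0860), with zone markers without cytochrome P450 genes (1.26, adjusted p 0.0651), and without MASH replicate 1 (0.92, adjusted p 0.548), MASH replicate 2 (1.89, adjusted p 0.219) or chow replicate 2 (1.41, adjusted p 0.0953). The number of genes called, 331, was 1 without MASH replicate 1, 12 without MASH replicate 2 and 563 without chow replicate 1. *Abcc3* (-0.76, adjusted p 0.105) and *Abcc2* (-0.53, adjusted p 0.104) had interactions of the opposite sign that did not pass with all libraries. *Abcc2* passed without chow replicate 1 (-0.60, adjusted p 0.0220), *Abcc3* without chow replicate 2 (-1.05, adjusted p 0.00394) and *Slco1a4* without chow replicate 3 (0.74, adjusted p 0.0284). The pericentral to periportal ratio of *Abcc3* was 1.37 to 2.50 in chow and 1.16 to 1.18 in MASH. That of *Abcc2* was 1.56 to 2.09 in chow and 1.16 to 1.18 in MASH.

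*Abcb1a* was higher in MASH in every zone. Its log2 fold change was 2.95 (SE 0.46, adjusted p 0.0126) in the periportal zone, 2.72 (SE 0.45, adjusted p 0.0152) in the middle zone and 2.98 (SE 0.42, adjusted p 0.0103) in the pericentral zone. It rested on 4 to 18 UMIs per zone of a chow library and 40 to 66 of a MASH library, and its calls were lost when either MASH library was left out (adjusted p 0.0975 to 0.151). *Slco1a4* passed in the pericentral zone alone, where it stood at 73.4, 33.1 and 37.9 CPM in chow and 111 and 254 CPM in MASH. Its log2 fold change was 1.95 (SE 0.45, adjusted p 0.0395) there, against 1.33 in the middle and 1.29 in the periportal zone, and the interaction of 0.53 (adjusted p 0.196) did not pass. The pericentral call was lost without MASH replicate 1 (2.42, adjusted p 0.0861), MASH replicate 2 (1.23, adjusted p 0.322), chow replicate 2 (1.71, adjusted p 0.106) or chow replicate 3 (1.79, adjusted p 0.0657).

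*Slc22a7* passed in the periportal zone, where its level was highest: 11.1, 12.1 and 12.1 CPM in chow and 5.75 and 4.16 CPM in MASH. Its log2 fold change there was -1.26 (SE 0.32, adjusted p 0.0423), against -1.83 (adjusted p 0.0711) in the middle and -1.10 (adjusted p 0.312) in the pericentral zone. The call was lost without either MASH library (-1.51 and -1.05, adjusted p 0.223 and 0.346), without chow replicate 2 (-1.28, adjusted p 0.0826) and with common cut points (-1.14, adjusted p 0.0731). *Slco1b2*, *Slco2b1*, *Abcc2*, *Abcc3* and *Abcc4* passed in no zone with all libraries. Without chow replicate 1, *Abcc3* passed in the pericentral (0.90), middle (1.28) and periportal (1.44) zones, *Slco1a4* in the middle (2.07) and periportal (2.03) zones and *Abcc2* in the periportal zone (1.38). With DESeq2, *Abcc2* passed in the periportal zone (1.057, adjusted p 0.0173) and *Slc22a7* in the middle zone (-1.88, adjusted p 0.0137).

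**Figure D4:**
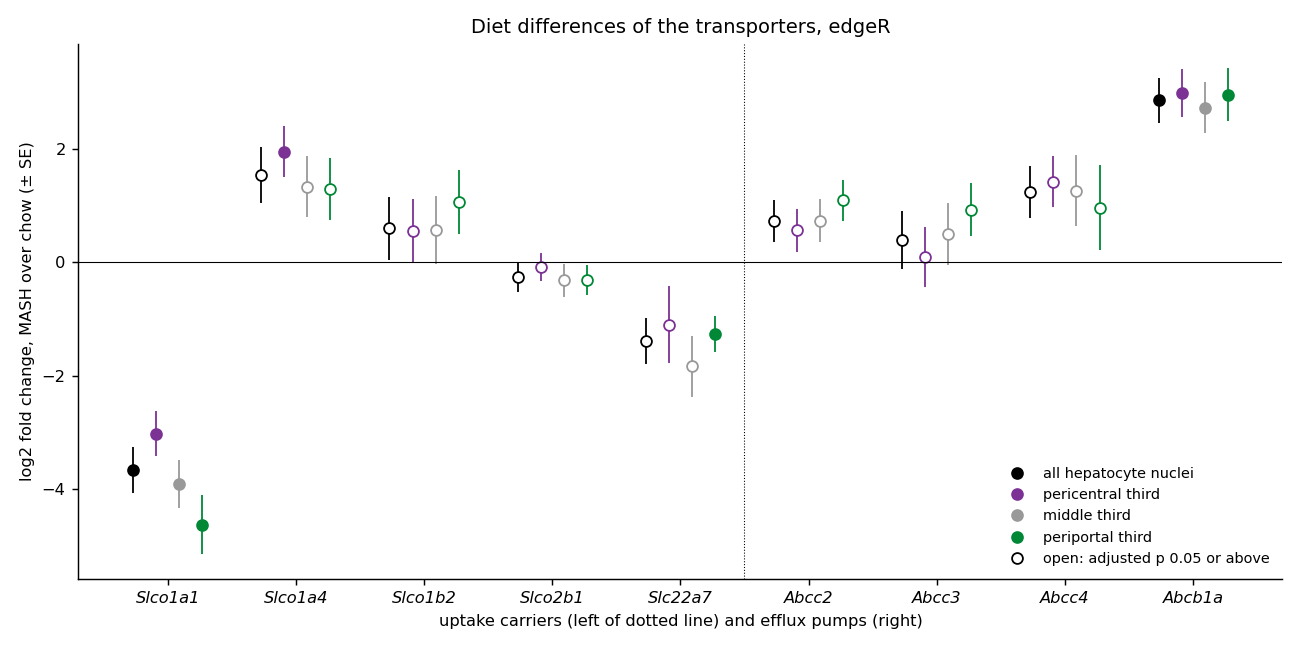
Log2 fold change of MASH over chow (y axis, points, with SE as bars) for the 5 uptake carriers and 4 efflux pumps (x axis) in all hepatocyte nuclei and in each zone. Filled points passed an edgeR adjusted p of 0.05: *Slco1a1* and *Abcb1a* in all 4 fits, *Slco1a4* in the pericentral and *Slc22a7* in the periportal zone.

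Uptake was then set against efflux. The uptake carriers together gave 69485, 39280 and 26627 UMIs in chow and 28525 and 46446 UMIs in MASH, and the efflux pumps 40415, 25710 and 30475 UMIs in chow and 33073 and 37405 UMIs in MASH. The log2 ratio of uptake over efflux was 0.78, 0.61 and -0.19 in chow against -0.21 and 0.31 in MASH. The diets overlapped, and the means of 0.40 ± 0.52 (SD, n = 3) and 0.05 ± 0.37 (SD, n = 2) differed by less than the spread in chow. The sum was mostly *Slco1b2*, which made up 75.2%, 65.6% and 59.4% of uptake UMIs in chow and 88.8% and 87.6% in MASH, while *Slco1a1* made up 18.1% to 29.4% in chow and 2.08% and 1.03% in MASH. *Abcc2* made up 87.3% to 94.7% of efflux UMIs in all libraries. Without *Slco1a1* the log2 ratio was 0.49, 0.18 and -0.70 in chow against -0.24 and 0.30 in MASH, and the difference of the means turned from -0.35 with all members to 0.04. Without *Slco1b2* the log2 ratio was -1.23, -0.93 and -1.497 in chow against -3.37 and -2.70 in MASH, a difference of -1.82 with no overlap. In that sum *Slco1a1* had the most UMIs of any uptake carrier in each chow library (12544, 10209 and 7822, against 593 and 480 in MASH). The separation thus holds the fall of *Slco1a1* given above and is not a further result. With all members, leaving out 1 library moved the difference between -0.65 (without chow replicate 3) and -0.09 (without MASH replicate 1), with -0.16 without chow replicate 1 and -0.61 without MASH replicate 2. With equal weight for each member (mean log2 level of uptake minus efflux) it was 2.07, 2.01 and 1.78 in chow against 0.21 and 0.53 in MASH. That value includes the 2 called members, *Slco1a1* (log2 fold change -3.65) and *Abcb1a* (2.85). UMIs are not scaled for gene length, and no test was made of a score over chosen members.

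**Figure D5:**
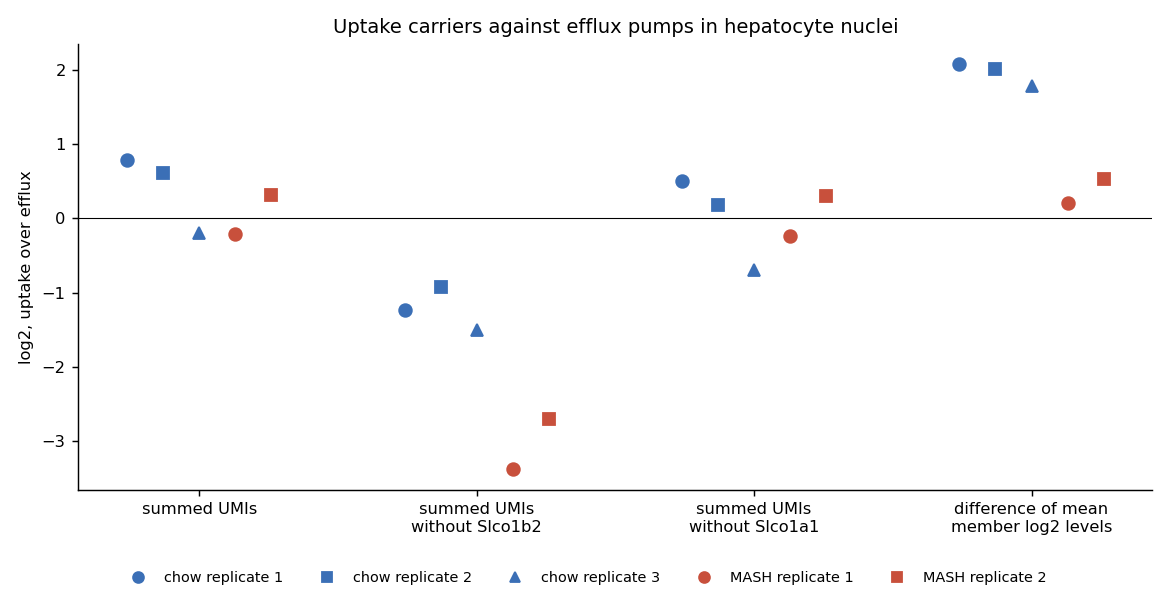
Log2 of uptake over efflux (y axis) in hepatocyte nuclei of each library (points), for the summed UMIs of all members, without *Slco1b2*, without *Slco1a1*, and as the difference of mean member log2 levels (x axis). With all members and without *Slco1a1* the diets overlap. Without *Slco1b2* MASH lies at -3.37 and -2.70 below the chow range of -1.497 to -0.93, and *Slco1a1* then has the most uptake UMIs in each chow library.

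Hepatocyte nuclei of MASH were also split by markers of disease-associated hepatocytes (daHep), a state named by the study (888 and 789 CPM of 6 marker genes in MASH and 131 to 276 CPM in chow). In nuclei with at least 2 of these marker genes against nuclei with none, the level was 0.837 and 0.519 times as high for *Slco1a1* in MASH replicates 1 and 2, 0.783 and 0.801 times for *Slco1b2* and 0.801 and 0.7997 times for *Slco1a4*. It was 0.886 and 0.918 times for *Slco2b1*, and 0.483 and 0.217 times for *Slc22a7*, which had 15 and 5 UMIs in the nuclei with markers. Among the pumps it was 0.998 and 0.947 times for *Abcc2*, 1.098 and 1.089 times for *Abcc3* and 1.22 and 1.79 times for *Abcb1a*, but 0.574 and 0.695 times for *Abcc4*, from 14 UMIs in the nuclei with markers of each library. The ratio of *Abcb1a* rested on 61 and 60 UMIs in nuclei with markers and 45 and 35 in those without. In both MASH libraries the ratio was thus below 1 for the 5 uptake carriers, *Abcc4* and *Abcc2*, and above 1 for *Abcc3* and *Abcb1a*. Those of *Abcc2* and *Abcc3* stayed between 0.947 and 1.098, and all are a description with no test. In chow the ratio was 0.745, 0.924 and 0.880 for *Slco1a1*, 0.846, 0.594 and 0.791 for *Slco1a4* and 0.814, 1.018 and 0.941 for *Slco1b2*. For *Slco2b1* it was 0.859, 1.24 and 1.27 in chow. *Slc22a7*, from 10, 4 and 21 UMIs in the chow nuclei with markers, had ratios of 3.62, 1.14 and 1.19. *Abcb1a* had 1, 2 and 2 UMIs in the chow nuclei with markers, from which no ratio is read.

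Other carriers and pumps of the same families gave a mixed picture. Of 17 other uptake carriers tested, 2 were called higher and 2 lower (median log2 fold change -0.33), and of 14 other efflux pumps 2 were called higher and 0 lower (median 0.34), beside 9.26% of all genes called higher and 4.48% lower. At an unadjusted p under 0.05 the uptake carriers were 3 higher and 5 lower and the efflux pumps 5 higher and 1 lower, beside 19% of all genes higher and 14.4% lower. DESeq2 called 2 uptake carriers higher and 5 lower and 5 efflux pumps higher and 1 lower, beside 12.6% and 10.8% of all genes. Both uptake carriers called higher, *Slc22a27* and *Slc22a29*, and the pump *Abcc12* passed the filter on low counts through the MASH libraries alone, so the counts of higher calls carry no weight as a result on these lists. *Slc22a27* (0.422, 0.457 and 0 CPM in chow, 6.26 and 5.67 CPM in MASH) and *Slc22a29* (0.345, 0.176 and 0.101 CPM against 1.61 and 1.59 CPM) rose, and *Slc22a28* fell from 69.2, 34.0 and 19.0 CPM to 5.43 and 3.75 CPM. These are close relatives in 1 family, and reads of paralogs can be shared. *Slco2a1*, the prostaglandin carrier, fell by 1.34 (adjusted p 0.0182), and endothelial nuclei held more of it (66.5 to 144 CPM) than hepatocyte nuclei (29.7 to 81.2 CPM). *Abcc5*, an exporter of cyclic nucleotides and organic anions, rose from 13.7, 7.94 and 6.73 CPM to 47.6 and 44.9 CPM (2.29, SE 0.33, adjusted p 0.00821), and *Abcc12* rose from 0.336 to 0.422 CPM to 4.77 and 1.54 CPM (3.07, adjusted p 0.0192).

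The bile acid carriers at both faces of the hepatocyte did not pass, though neither overlapped between the diets. *Slc10a1*, the sodium-dependent bile acid carrier of the sinusoidal membrane, stood at 265, 147 and 88.0 CPM in chow and 52.3 and 58.4 CPM in MASH (-1.59, SE 0.46, adjusted p 0.0560). *Abcb11*, the canalicular bile salt export pump, stood at 425, 378 and 173 CPM in chow and 156 and 124 CPM in MASH (-1.22, SE 0.42, adjusted p 0.0895). Without chow replicate 3, which had the lowest chow level of both, they passed at -1.96 (adjusted p 0.0132) and -1.58 (adjusted p 0.0117). Both also passed with DESeq2, with Storey's q-values and without a filter on low counts. *Slc10a1* did not pass in 13 and *Abcb11* in 14 of 19 alternatives. Across all 19 the log2 fold change ran from -1.96 to -1.09 for *Slc10a1* and from -1.58 to -0.96 for *Abcb11*.

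Of 18 xenobiotic and bile acid sensors tested, 0 were called in either direction by edgeR with all libraries (log2 fold changes from -0.85 to 0.92). At an unadjusted p under 0.05, 3 were higher and 1 lower, and DESeq2 called 1 higher and 1 lower. Over all genes edgeR called 9.26% higher and 4.48% lower, and DESeq2 12.6% and 10.8%. The shares at an unadjusted p under 0.05 were 19% and 14.4%. The counts of each list in this paragraph are to be read against these shares. Among 13 CAR and PXR target enzymes, *Cyp2b9* (3.23, adjusted p 0.0166) and *Cyp2b13* (2.09, adjusted p 0.0490) rose, while *Cyp2c29* (-3.88, adjusted p 0.00346) and *Ces2a* (-2.46, adjusted p 0.00498) fell, and *Cyp2b10* went from 3.11, 7.21 and 5.08 CPM to 0.119 and 0 CPM. At an unadjusted p under 0.05, 2 of these enzymes were higher and 6 lower, and DESeq2 called 1 higher and 6 lower. *Cyp2b13* passed the filter on low counts through MASH libraries alone, and *Cyp2b10* through chow libraries alone. Members of the Cyp2b family have close paralogs. Of 15 NRF2 targets tested, a list that holds *Abcc2*, *Abcc3* and *Abcc4*, *Gstm3* (2.12, adjusted p 0.0137) and *Ephx1* (1.23, adjusted p 0.0407) rose and 0 fell in edgeR, with 5 higher and 1 lower at an unadjusted p under 0.05 and 3 higher and 1 lower in DESeq2. *Cyp2b13* lost its call without any 1 library, and *Ephx1* without any 1 library except chow replicate 1.

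*Slco1a1* belongs to a list of 10 male-biased growth hormone dependent genes and is itself among the 8 that fell in edgeR, while 0 rose. The counts were the same in DESeq2 and at an unadjusted p under 0.05, and the median log2 fold change was -3.37. Over all genes 4.48% were lower in edgeR, 10.8% in DESeq2 and 14.4% at an unadjusted p under 0.05. The list was chosen with earlier results known, so its counts carry no weight as support for *Slco1a1*. *Cyp7b1*, an oxysterol hydroxylase, fell by 4.71 (adjusted p 0.00185), *Mup1* and *Mup7*, major urinary proteins with many near-identical copies, fell by 8.27 and 7.78, and *Hsd3b5* went from 54.4, 85.8 and 9.72 CPM to 0.179 and 0 CPM. The exceptions, named after their values were seen, were *Cyp2d9* (-0.61, adjusted p 0.224) and *Mup20* (0.73, adjusted p 0.367). *Mup1* and *Hsd3b5*, both among the 8, passed the filter on low counts through chow libraries alone. Of 12 female-biased genes 5 had enough UMIs to be tested, and no direction is read for this list. *Cyp2a4* had 0, 1 and 4 UMIs in chow and 114 and 39 in MASH (adjusted p 0.0104), and it and *Cyp2b13* passed the filter through MASH libraries alone. *Cyp2b9* is given above, and *Cyp4a14* fell (-3.98, adjusted p 0.0445). *Cyp4a14* stood at 1277, 635 and 88.5 CPM in chow and lost its call without chow replicate 1, chow replicate 2 or either MASH library. Of the 10 acute-phase genes 1 passed (6 lower at an unadjusted p under 0.05 and in DESeq2), beside the shares of all genes given for the male-biased list. It was *Fgb* (-2.92, adjusted p 0.0275), which was highest in chow replicate 3 (7399 CPM) and lost its call when either MASH library was left out.

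Calls of these other genes also rested on single libraries. Without either MASH library *Slc22a27*, *Slc22a28*, *Slc22a29*, *Slco2a1*, *Abcc5*, *Cyp2b9*, *Ces2a* and *Gstm3* lost their calls (adjusted p 0.0538 to 0.201). *Abcc12* (2.04, adjusted p 0.241) and *Cyp2a4* (4.89, adjusted p 0.0767) lost theirs without MASH replicate 1 only among the MASH libraries, and *Cyp2b10* and *Hsd3b5* (adjusted p 0.0557 for both) without MASH replicate 2. Without chow replicate 2 *Slc22a27*, *Slc22a29*, *Slco2a1*, *Abcc12* and *Cyp2b9* did not pass (adjusted p 0.0530 to 0.0669). *Cyp2c29*, *Mup1*, *Mup7* and *Cyp7b1* passed with each of the 5 libraries left out.

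The pattern of *Slco1a1* over the 15 sums of library and zone was most like those of *Acsm1* (Pearson r 0.981), *Phlda1* (0.976) and *Cyp2c54* (0.976), among 8965 genes with a mean of at least 10 CPM. For *Abcb1a* the closest genes were *Myl12b* (0.985), *Cep162* (0.982) and *Gm19619* (0.981). Zones of 1 library share their source and depth. In hepatocyte nuclei *Acsm1*, *Phlda1* and *Cyp2c54* had diet log2 fold changes of -1.01, -2.92 and -4.43, and *Myl12b*, *Cep162* and *Gm19619* of 0.95, 1.11 and 3.53. Because the genes were picked by likeness over sums of both diets, the signs of these changes follow from the choice and are no further result.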

How the data were processed

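Nuclear RNA of 5 liver libraries was counted with the 10x Genomics 3' kit (v3). The authors deposited UMI counts per gene and barcode, made with Cell Ranger 8.0.1 on GRCm38, without intronic reads according to the study's methods. All 32285 genes were read, 32158 (99.6%) matched GENCODE M21 by identifier, and 0 deposited columns were left out.

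UMIs of hepatocyte nuclei were summed per library and tested with edgeR 4.0.16 in R 4.3.3 (TMM scaling, filterByExpr, quasi-likelihood test, Benjamini-Hochberg adjustment over all genes tested, threshold 0.05). Printed CPM are TMM-scaled unless called unscaled. Zones (3 equal parts of each library) came from pericentral and periportal marker scores, and tests between zones had the library as a block. Other cell types were gated on at least 3 own markers, at most 1 of another type, no *Hnf4a* UMI and at least 500 UMIs. Shares were taken after thinning to 2000 UMIs. No doublets were removed in the main analysis, and removal was an alternative (scanpy 1.11.5). DESeq2 was 1.42.0. The test was checked on simulated data. Precision comes from the spread between libraries, and the sparse members (*Abcb1a*, *Abcc4*, *Slc22a7*) have the least precision.

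The members and gene lists were chosen with earlier results of these data known. The genes named were all members, from each other list the called genes (at most 5 in each direction, by size), *Slc10a1* and *Abcb11*, and the 3 genes most like the called member with the largest rise and the one with the largest fall. Promoters came from RefSeq (GRCm38.p6).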

Additional observations from a re-analysis of the deposited data

Results flagged for a closer look

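*Slco1a1* was picked out because its difference between the diets differed between the end zones. The zone by diet interaction was 1.43 on the log2 scale (SE 0.32, edgeR adjusted p 0.0446). MASH was below chow in both end zones, with log2 fold changes of -4.62 and -3.02 in the periportal and pericentral zone. Across alternatives the interaction ran from 0.92 without MASH replicate 1 to 1.89 without MASH replicate 2, and its adjusted p from 0.00985 without chow replicate 3 to 0.548 without MASH replicate 1.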

How the results depend on the processing

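In hepatocyte nuclei 151 of the transporters' values under alternatives kept their direction and side of the threshold, 13 newly passed, 2 no longer passed and 2 reversed. The number of called genes (2117) was 3598 with DESeq2, 4403 with Storey's q-values, 3322 without a filter on low counts, 813 with at least 10 CPM in 2 libraries, 1251 in nuclei with few UMIs of other cell types and 216 to 3298 with 1 library left out. In the pericentral zone it was 2317 with DESeq2 and 30 to 2206 with 1 library left out, in the middle zone 2430 with DESeq2 and 73 to 2662, and in the periportal zone 2734 with DESeq2, 874 with common cut points and 33 to 2797. Leaving out 1 library gave 1847 to 2427 genes for zonation and 1 to 563 for the interaction. The uptake over efflux difference was 0.04 without *Slco1a1*, where its sign turned, -1.82 without *Slco1b2* and -1.58 as the mean of member log2 levels. The cause of these shifts was not tested.

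Signs turned for values that had not passed. *Slco2b1* between the diets was 0.0296 with total UMIs only. With 1 library left out, *Abcc3* ran from -0.0032 to 1.12 in hepatocyte nuclei and from -0.24 to 0.90 in the pericentral zone, and *Slco2b1* from -0.20 to 0.0761 there. For zonation *Abcb1a* was 0.14 with common cut points and 0.0454 with markers without cytochrome P450 genes, and *Slco2b1* was -0.0226 with the latter and -0.0117 to 0.0704 with 1 library left out. For the interaction *Slc22a7* was -0.13 with common cut points, -0.0834 with markers without cytochrome P450 genes and -0.19 to 0.64 with 1 library left out. There *Abcb1a* was -0.14 with markers without cytochrome P450 genes and -0.24 to 0.30 with 1 library left out, and *Abcc4* ran from -0.59 to 0.92.

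Libraries of the 2 diets share only a replicate number, and same-numbered libraries deviated with correlations of -0.10 and -0.20. The deviations of the 2 MASH libraries from their mean mirror each other. Chow replicate 1 thus gave 0.10 with MASH replicate 2, and chow replicate 2 gave 0.20 with MASH replicate 1. No pairing is read from these values. A fit with that number as a block called 1937 genes in hepatocyte nuclei, 1938 in the middle and 1205 in the periportal zone, *Abcc3* in the pericentral zone was -0.0032, and *Slc22a7* in the periportal zone did not pass (-1.24, adjusted p 0.0907). Depth limits *Abcb1a*, *Abcc4* and *Slc22a7*, which were not tested with at least 10 CPM in 2 libraries.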
